A study of Mus musculus with 16 samples.

Results

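Male (XY) mice whose bladders had been instilled with vascular endothelial growth factor were compared with male mice instilled with saline, in the dorsal root ganglia that hold the sensory neurons of the bladder. All mice were wild-type C57BL6/J; no age is given. Groups were taken from the labels. The VEGF males received VEGF165, the labels' VEGFA treatment, at 6.41 nM in 100 µL of saline on days 1, 5 and 9, and the saline males received 100 µL of saline on the same days. The L1, L2, L6, S1 and S2 ganglia were taken on day 16, after visceral mechanical sensitivity had been tested with von Frey filaments, and each library came from 1 animal. The comparison used 8 of the 16 libraries of the series, with VEGF males 1 and 2 and saline males 3 and 4 in batch 1, and VEGF males 5 and 6 and saline males 7 and 8 in batch 2. The other 8 libraries, from females, entered the estimate of the spread and the comparison between the sexes. Of 55357 genes in the table, the 18283 whose mean over the 16 libraries reached 0.5 CPM (reads of a gene scaled to a common library total) were tested. A ganglion library holds RNA of many segments and cell types, of which the neurons that reach the bladder are a minority.

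VEGF is best known as a growth factor of blood vessels, acting through the receptor kinases Flt1 and Kdr with the neuropilins Nrp1 and Nrp2 as co-receptors. Sensory neurons and the vessels of the ganglion carry these receptors too, and VEGF in the bladder wall has been linked to nerve growth and pelvic sensitivity. Bladder afferents detect stretch and chemical signals with channels such as Piezo2, Trpv1 and P2rx3 and release peptides such as substance P (Tac1) and calcitonin gene-related peptide (Calca).

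The male libraries held 26.53 to 41.2 M (mega) counted reads, 26.53 to 28.91 in batch 1 and 32.83 to 41.2 in batch 2. The neuronal genes Tubb3 (2714 to 4722 CPM), Prph (1855 to 2861) and Avil (545 to 848) were high in all 8 libraries, and the urothelial genes Upk2 (at most 0.588 CPM) and Upk3a (at most 0.183) were near 0. Xist, the RNA of the inactive X chromosome, was between 0 and 0.369 CPM in males and between 18.6 and 95 in the female libraries, while the Y-linked Ddx3y lay between 5.88 and 28.9 CPM in males. Nothing in the labels says whether animals of a group shared a cage or litter, so p-values measure only the spread between these animals.

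No gene passed an adjusted p of 0.05 between VEGF and saline males (0 of 18283, 0.0% called, limma with Benjamini-Hochberg adjustment), and the smallest adjusted p was 0.90. At an unadjusted p under 0.05, 451 genes were higher (2.47% called) and 556 lower (3.04% called) in VEGF males, 1007 in all. The 4 VEGF males all lay above the 4 saline males for 140 genes (0.766%) and all below them for 201 genes (1.1%). On recovered reads edgeR called 0 genes, with 938 at an unadjusted p under 0.05, and DESeq2 called 1, Sox1, with 1075. The median difference over all genes was -0.01 on the log2(CPM + 0.5) scale and the median standard error (SE) 0.239, and 219 genes differed by more than 2-fold. After a correction of each library for transcript length and GC content the split at an unadjusted p under 0.05 turned to 722 higher and 505 lower, so that 58.8% instead of 44.8% of these genes were higher. The shares over all genes, 2.47% higher and 3.04% lower, are the background for the counts at this p in the gene lists below. The genes described next are those with the smallest p and the same sign in both batches, and each of them had an adjusted p of 0.90. As they were chosen by these same values, a lack of overlap or the same sign in both batches adds no support.

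Among the 15 genes of this kind that lay lower in VEGF males, 11 showed no overlap between the groups. Angptl4, on chromosome 17, is a secreted protein that blocks lipoprotein lipase and is induced by fasting and PPAR signalling. Its level was 37.6, 43.5, 36.6 and 40.2 CPM in saline males 3, 4, 7 and 8 and 28.7, 24.2, 21.6 and 25.6 CPM in VEGF males 1, 2, 5 and 6. Every VEGF male lay below every saline male, by a log2 difference of -0.65 (SE 0.171, unadjusted p = 0.00136) that was -0.61 in batch 1 and -0.70 in batch 2. The female animals, which share no library with the males, showed a log2 difference of -0.85 (SE 0.171). Gng7, a G protein gamma subunit, was at 36.6, 31.5, 31.7 and 28.9 CPM in the saline males and at 24.7, 24.5, 19.8 and 20.2 in the VEGF males. These ranges did not overlap either (log2 difference -0.52, SE 0.127, unadjusted p = 0.000746), but the female difference was 0.06.

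Retreg3, a receptor of selective autophagy of the endoplasmic reticulum, lay between 53.3 and 58.8 CPM in saline males and between 32.2 and 45.2 in VEGF males (log2 difference -0.51, SE 0.119). Cox10, an enzyme on the way to the heme A of cytochrome c oxidase, lay between 28.3 and 34.2 CPM in saline and between 19.7 and 24 CPM in VEGF males (-0.49 on the log2 scale, SE 0.133). Rhbdd2, a rhomboid family membrane protein, was at 75.2 CPM in saline (SD 5.33, n = 4) and 56.8 CPM in VEGF males (SD 4.32, n = 4). In all 3 genes the lowest saline male stood above the highest VEGF male in both batches together. Cfap74, a gene of motile cilia, had the smallest p (0.000199) of the 15 genes that lay lower with the same sign in both batches. It was at 3.20, 3.17, 4.77 and 6.49 CPM in saline males against 0.782, 1.11, 2.72 and 2.21 in VEGF males. It belongs to a list of ependymal and cilia genes of which 8 were higher and 7 lower, and the cilia regulator Foxj1 lay between 46.7 and 56.8 CPM in saline and between 52.4 and 63.7 in VEGF males.

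Il6ra, the receptor subunit for interleukin 6, was at 9.27, 7.62, 11.1 and 14.4 CPM in saline males and at 3.5, 5.33, 5.70 and 8.99 CPM in VEGF males. Its groups overlapped through VEGF male 6, while within each batch both VEGF males lay below both saline males (log2 difference -0.83, SE 0.227, unadjusted p = 0.00192). Wwc1, a scaffold protein of the Hippo pathway also known as KIBRA, was at 15.7, 10.8, 15.2 and 5.57 CPM in saline and 2.76, 2.59, 4.30 and 4.23 in VEGF males. The groups stood only narrowly apart at saline male 8, which also held the least spinal cord RNA of the saline males. The part of such RNA in the difference was not tested. The female difference of Wwc1 had the opposite sign (0.61 against -1.56 in males). Mro, Fcor, Slc46a3 and Nfil3 were the others with no overlap, and Lncpint, Mindy4 and Prdx6 lay lower with some overlap. Of these 15 genes, 9 had the opposite sign in females.

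**Figure D1:**
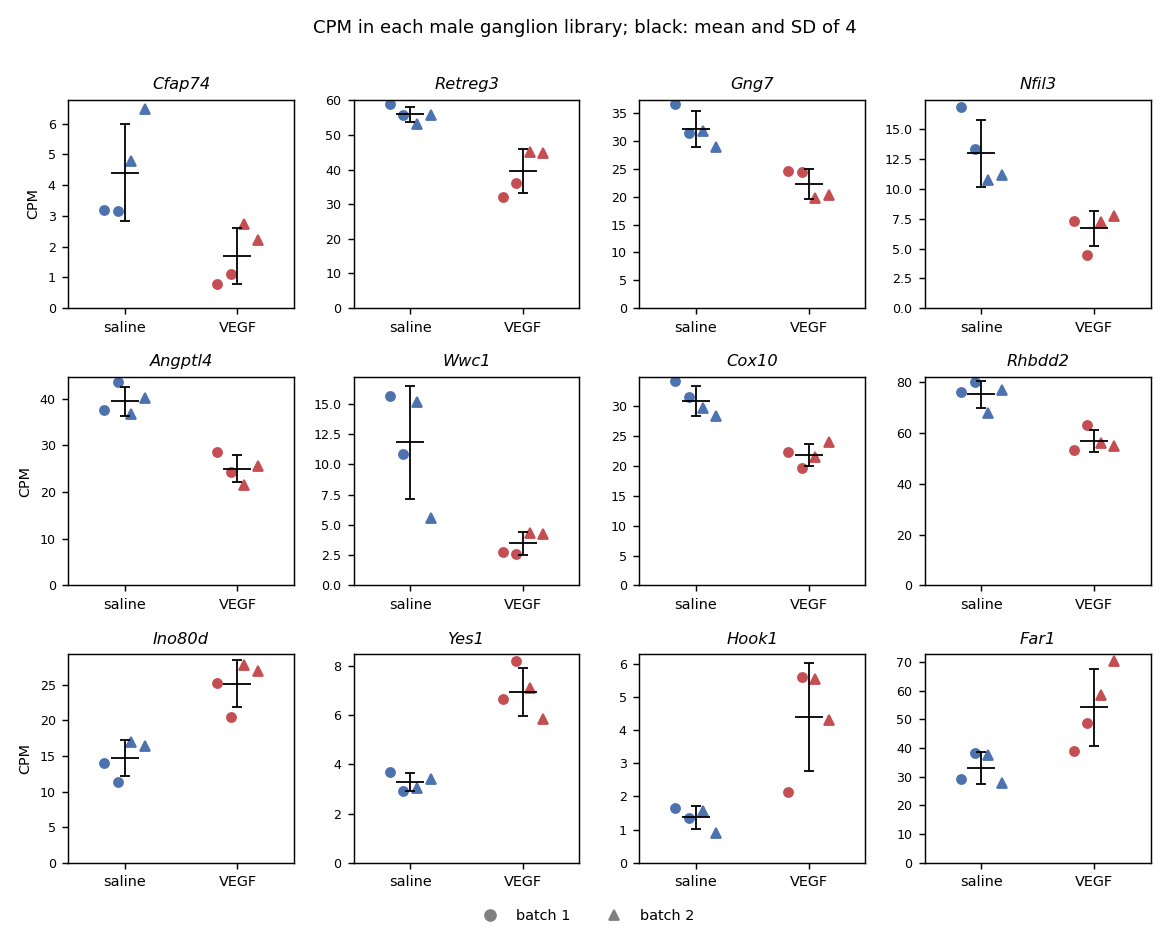
CPM (y axis, from 0) of 12 genes in each of the 4 saline and 4 VEGF male libraries, with circles for batch 1, triangles for batch 2 and the mean and SD in black. The 8 genes of the upper rows lay lower in every VEGF male than in every saline male, and Ino80d, Yes1, Hook1 and Far1 lay higher.

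Among the 15 genes that lay higher in VEGF males, 4 showed no overlap: Ino80d, Yes1, Hook1 and Far1. Yes1, a kinase of the Src family, was at 3.70, 2.90, 3.06 and 3.41 CPM in saline males and at 6.63, 8.20, 7.09 and 5.84 CPM in VEGF males. The log2 difference was 0.98 (SE 0.258, unadjusted p = 0.00143), and the lowest VEGF male stood well above the highest saline male. Ino80d, a subunit of the INO80 chromatin remodelling complex, was at 13.9, 11.4, 17 and 16.4 CPM in saline and at 25.3, 20.4, 27.8 and 26.9 CPM in VEGF males (log2 difference 0.76, SE 0.185). Hook1, which links cargo to dynein, was at 1.37 CPM in saline (SD 0.345, n = 4) and 4.39 CPM in VEGF males (SD 1.62, n = 4), with VEGF male 1 the lowest of its group at 2.12. Far1, an enzyme of ether lipid synthesis, lay between 27.7 and 38.4 CPM in saline and between 39.0 and 70.5 in VEGF males, so that the gap between the groups was narrow.

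The other genes with small p overlapped. Supt20, a subunit of the SAGA transcription complex, was at 13.9, 12.6, 18.5 and 13.2 CPM in saline and 18.2, 17.1, 31.7 and 34.0 CPM in VEGF males, and Ahctf1, a nuclear pore protein, was at 7.67 and 15.2 CPM on average. Both had larger differences in batch 2 (1.04 for Supt20 and 1.17 for Ahctf1) than in batch 1 (0.40 and 0.58), as had 10 of the 15 genes. Pde1a, a calmodulin-dependent phosphodiesterase, differed by 0.71 (SE 0.180) and Ddhd2, a brain triglyceride lipase, by 0.52 (SE 0.138). Ryr3, a calcium release channel of the endoplasmic reticulum, was at 1.73, 1.58, 5.18 and 5.18 CPM in saline and 4.88, 4.36, 9.32 and 6.95 CPM in VEGF males, higher within both batches, and its female difference was 0.96 against 0.92 in males. Zcchc7, Pla2r1, Slc35a3, Tbc1d8 and Ythdc2 were also among the 15, of which 8 had the opposite sign in females.

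The ligands and receptors of the instilled factor itself showed no difference beyond the spread between animals. None of 5 ligands and 6 receptors or co-receptors had an unadjusted p under 0.05, and the list medians were -0.08 for both on the log2 scale. Vegfa was at 29.4, 20.9, 39.7 and 23.9 CPM in saline males and at 14.1, 17.6, 45.9 and 40.5 CPM in VEGF males. It was lower than saline in both VEGF males of batch 1 and higher in both of batch 2, giving a difference of -0.08 with a 95% interval from -0.64 to 0.48. Vegfb, a ligand of Flt1, was at 109.7 CPM in saline (SD 14.4, n = 4) and 95.4 CPM in VEGF males (SD 39.1, n = 4), with an interval from -0.62 to 0.04, and its batches differed (0.09 and -0.67, adjusted p = 0.0497 for their difference), though not after the length and GC correction described below (adjusted p = 0.93). Vegfc, Vegfd and Pgf differed by -0.30, 0.12 and 0.11, each with an SE over 0.2.

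Flt1, a receptor that also acts as a decoy for VEGF, was at 46.8, 37.2, 46.9 and 40.9 CPM in saline and at 44.4, 46.8, 41.8 and 41.6 CPM in VEGF males. Its 95% interval ran from -0.28 to 0.33 log2 units. Kdr, the main signalling receptor of vessels, was at 13.7, 5.62, 17.2 and 8.56 CPM in saline and 4.28, 8.75, 15.7 and 15.9 CPM in VEGF males, with a wide interval from -0.84 to 0.72. The lymphatic receptor Flt4 differed by -0.10 (SE 0.249), Nrp1 by -0.10 (SE 0.136) and Nrp2 by 0.21 (SE 0.162). Of 23 genes of VEGF signalling and endothelial response, 8 were higher and 15 lower and none had an unadjusted p under 0.05, with a median of -0.08.

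**Figure D2:**
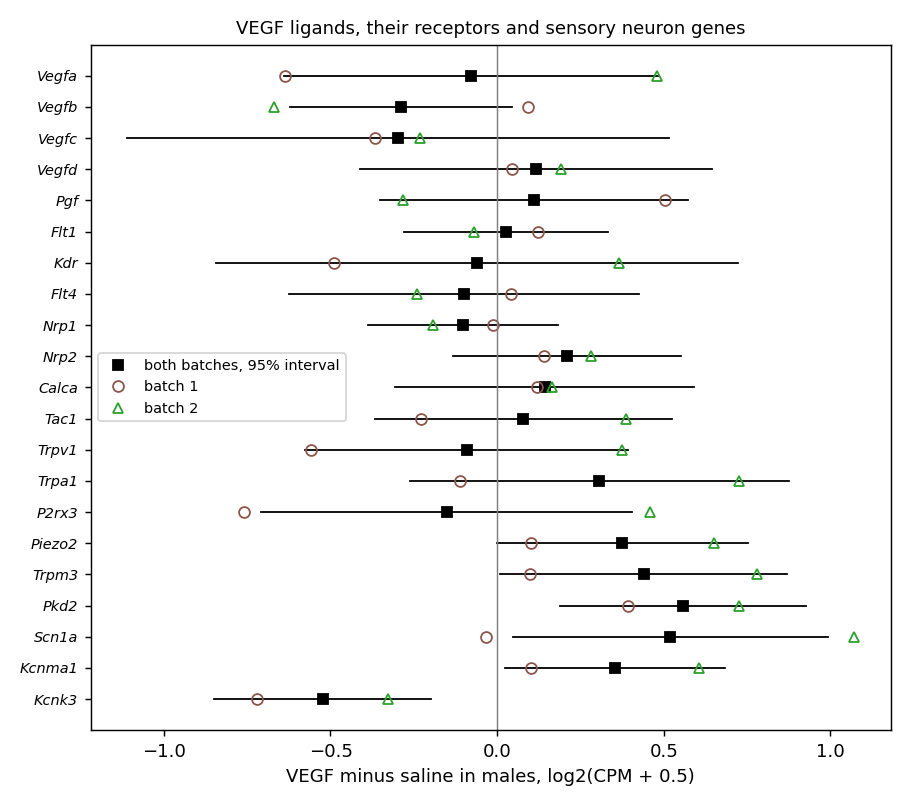
Differences between VEGF and saline males in log2(CPM + 0.5) (x axis) for 10 VEGF ligands and receptors and 11 sensory neuron genes, as squares with 95% intervals for both batches together and open symbols for each batch. The intervals of all 10 VEGF ligands and receptors include 0, and the batches lie on opposite sides of 0 for Vegfa, Vegfb, Pgf, Flt1, Kdr and Flt4.

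Receptors and channels of bladder afferents showed no difference beyond the spread either. Of 37 tested receptors on this list, 13 were higher and 24 lower, the median was -0.09, and none had an unadjusted p under 0.05. Piezo2, the stretch channel needed for bladder filling sensation, came nearest with 106, 151, 212 and 186 CPM in saline and 142, 130, 298 and 325 CPM in VEGF males (log2 difference 0.38, SE 0.179, unadjusted p = 0.051). Only the 2 VEGF males of batch 2 lay above all saline males. Adora1, an adenosine receptor that inhibits nociceptors, differed by -0.26 (SE 0.133), and Chrna7, a nicotinic receptor subunit, by 0.71 (SE 0.369). The capsaicin receptor Trpv1 (-0.09, SE 0.230), the irritant receptor Trpa1 (0.31, SE 0.270) and the ATP receptor P2rx3 (-0.15, SE 0.265) overlapped between the groups. Calca was at 1005 CPM in saline (SD 235, n = 4) and 1088 CPM in VEGF males (SD 57.5, n = 4), and Tac1 was at 180 and 183 CPM.

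Among 40 potassium and HCN channels, 21 were higher and 19 lower, and 1 in each direction had an unadjusted p under 0.05. Kcnk3, a background potassium channel that holds the resting potential, was at 42.5, 45.5, 39.0 and 44.4 CPM in saline and at 23.7, 29.7, 37.5 and 29.1 CPM in VEGF males. Every VEGF male was below every saline male (log2 difference -0.52, SE 0.154, unadjusted p = 0.00335). Kcnma1, the large-conductance calcium-activated potassium channel, differed by 0.35 (SE 0.157) with overlap. Of 18 TRP channels 13 were higher, among them Pkd2 (0.56, SE 0.175) and Trpm3 (0.44, SE 0.204), a heat and steroid sensor. Of 14 voltage-gated sodium channels 7 were higher and 7 lower, and Scn1a was at 31.0, 37.7, 35.4 and 24.7 CPM in saline and 35.4, 31.5, 59.0 and 66.7 CPM in VEGF males. The difference of Scn1a (0.52, SE 0.224) lay in batch 2, where it was 1.07, and was -0.03 in batch 1.

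Of 20 neuropeptide genes tested, 11 were higher and 9 lower, with 1 and 3 at an unadjusted p under 0.05. Nts (neurotensin) was at 6.00, 14.3, 8.32 and 13.9 CPM in saline and 11.6, 15.9, 33.8 and 30.0 CPM in VEGF males, overlapping in batch 1 only (log2 difference 1.02, SE 0.389). Cck, the gene for cholecystokinin, was at 9.10, 13.8, 3.75 and 0.609 CPM in saline and 0.708, 0.865, 0.534 and 0.113 CPM in VEGF males (log2 difference -2.32, SE 0.783). Among the saline males Cck was lowest in saline male 8, which also held the least spinal cord RNA of that group, and the part of such RNA in its difference was not tested. Adm (-0.74, SE 0.332) and Grp (-1.18, SE 0.541) were lower in batch 1 and close to saline in batch 2 (-0.04 and 0.04). Of 29 receptors for GABA, glutamate and glycine, the AMPA receptor subunit Gria3 (0.64, SE 0.232) and the GABA-A receptor subunit Gabra3 (-0.69, SE 0.313) had an unadjusted p under 0.05.

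The sign of the difference turned between the batches for most genes. The VEGF minus saline difference had the same sign in batch 1 and batch 2 for 6424 of 18283 genes (35.1%), and the 2 sets of differences correlated across genes at -0.25, where genes are not independent replicates. In females the share was 55.6% and the correlation 0.14. A test of the difference between the batches in the male comparison, chosen after the data were seen, called 898 genes (4.91% called, limma), 589 higher in batch 2 and 309 lower, and edgeR called 864. This count rests on the 2 libraries in each cell of group and batch. It was 0 without saline male 3, 4 or 8 or without VEGF male 5 or 6, 5 without VEGF male 1, 1217 without VEGF male 2 and 2290 without saline male 7.

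The libraries differed in how their levels depended on transcript length. The slope of a library's log2 level, relative to the mean of all libraries, on log2 transcript length was -0.324 and -0.253 in the VEGF males of batch 1 and -0.124 and -0.134 in the saline males of that batch. In batch 2 it was 0.275 and 0.284 in VEGF males and 0.116 and -0.0522 in saline males. VEGF males thus lay below saline males in batch 1 and above them in batch 2. Females of batch 1 went the other way, with slopes of 0.0373 and 0.0408 for VEGF and -0.199 and -0.27 for saline. In batch 2 the slopes were 0.186 and 0.154 in VEGF females and 0.201 and 0.0623 in saline females. After the length and GC correction 178 genes (0.974%) were still called for the difference between batches, and 43.3% of genes had the same sign. In both batches the numbers of the library names also ran separately for VEGF and saline males, and what this marks is not given. Among the males it and the treatment cannot be told apart in either batch. In batch 1 the numbers ran on from VEGF males to saline females and from saline males to VEGF females, so each run held both treatments. The female minus male difference of batch 1 cannot be told apart from these runs.

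Among the genes called, chosen after their values were seen, were several of sensory neurons. Sprr1a, a gene that neurons switch on after axon injury, was at 0.395, 0.528, 4.92 and 6.33 CPM in saline males and at 0.335, 0.519, 155 and 124 CPM in VEGF males. Only VEGF males 5 and 6 stood apart, with a difference of 4.52 log2 units in batch 2 and -0.06 in batch 1. Atf3, the injury-induced transcription factor, followed at 65.2 and 53.3 CPM in VEGF males 5 and 6 and between 7.12 and 17.6 CPM in the other 6 males. The cold receptor Trpm8 was at 0 and 0.588 CPM in the VEGF males of batch 1, 18.7 and 13.8 CPM in those of batch 2 and between 3.32 and 7.01 CPM in saline males, so that its sign turned from -2.70 to 1.63. Cacna2d1, the gabapentin target (-0.51 and 1.40), Gfra1, a receptor for GDNF (-0.60 and 0.99) and P2rx3 (-0.76 and 0.46) turned the same way.

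**Figure D3:**
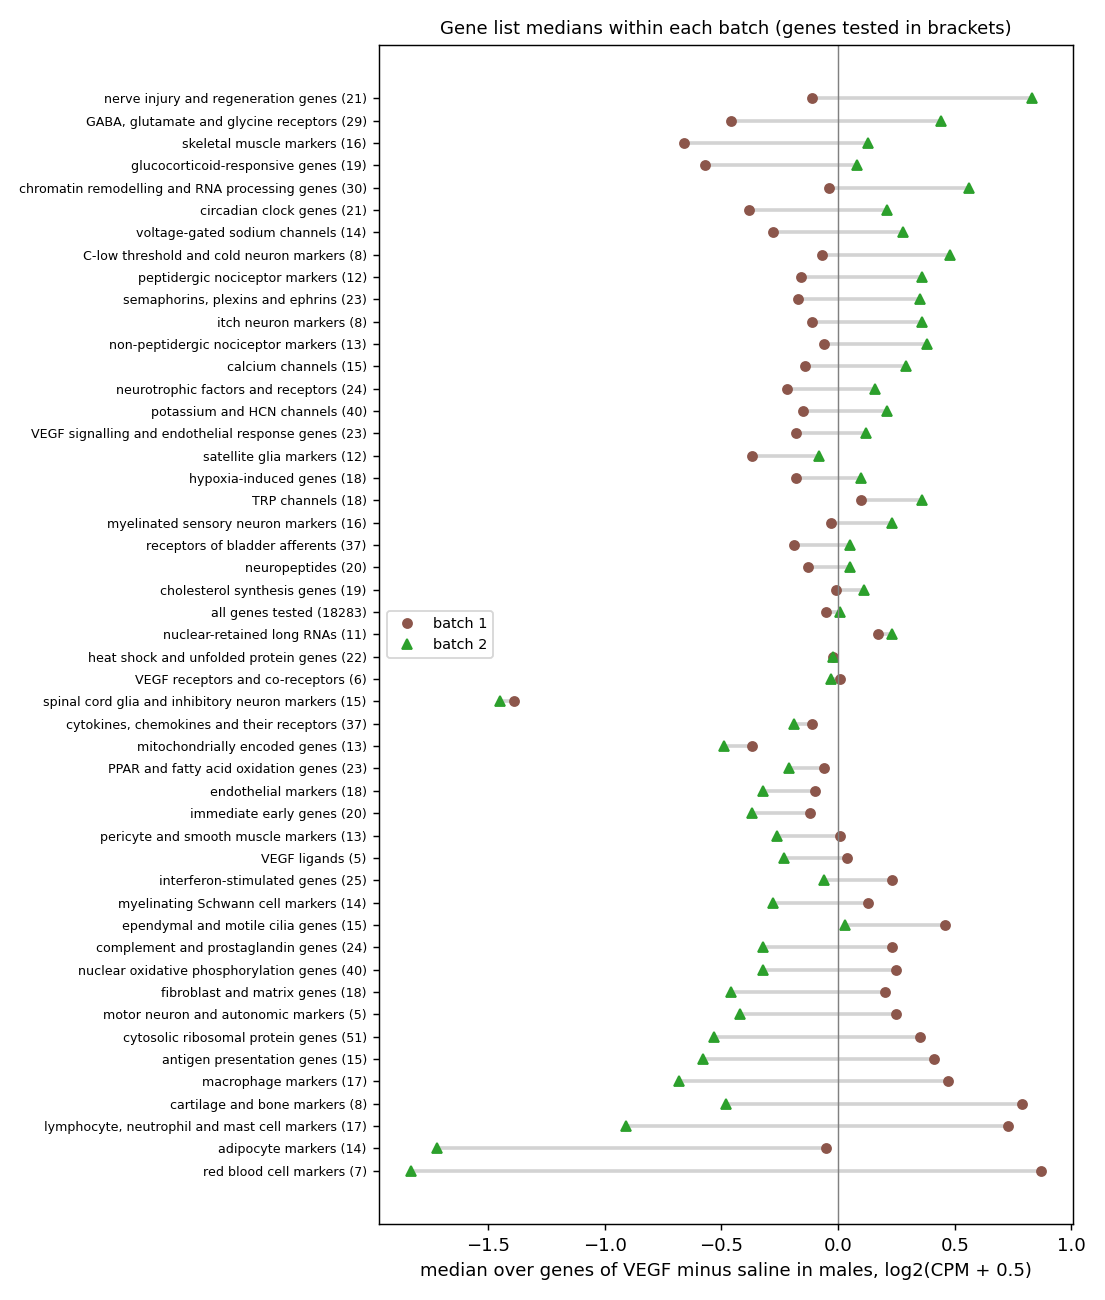
Median over the genes of each list (number tested in brackets) of the VEGF minus saline difference in males, in log2(CPM + 0.5) (x axis), with circles for batch 1 and triangles for batch 2. Medians of the spinal cord and mitochondrially encoded lists lie below 0 in both batches, while those of the nerve injury, ribosomal protein, macrophage and antigen presentation lists lie on opposite sides of 0.

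The lists differed in which batch lay higher. Nerve injury genes had a median of -0.11 in batch 1, where 14 of 21 were lower, and 0.83 in batch 2, where 19 were higher. Over both batches together 20 were higher, against 8927 of all 18283 genes, and 5 members had the same sign in both batches. At an unadjusted p under 0.05, 5 were higher (2.47% of all genes). The cell cycle and stress gene Gadd45a did not overlap between the groups (0.47, SE 0.213), and Sox11 (0.83, SE 0.262) and Jun (0.34, SE 0.124), transcription factors of regrowing neurons, were higher in both batches. Cytosolic ribosomal protein genes went the other way, with 49 of 51 higher in batch 1 (median 0.35) and 49 lower in batch 2 (median -0.53), and 19 called for the difference between batches (4.91% of all genes). After the length and GC correction 4 of the 51 were called. Rplp1 was at 1062 and 905 CPM in VEGF males 1 and 2, 374 and 372 CPM in VEGF males 5 and 6 and between 538 and 644 CPM in saline males. Rplp1 was no longer called after the correction (adjusted p = 0.583), whereas Rpl23 was (adjusted p = 0.0488). Nuclear genes of oxidative phosphorylation had medians of 0.25 and -0.32, with 8 of 40 called (4.91% of all genes) and 0 after that correction.

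Antigen presentation, macrophage and red blood cell lists lay higher in batch 1 and lower in batch 2. All 15 antigen presentation genes were higher in VEGF males of batch 1 (median 0.41) and 14 were lower in batch 2 (median -0.58). Macrophage markers had medians of 0.47 and -0.68, with 5 of 17 called for the difference between batches (4.91% of all genes) and 0 after the length and GC correction. Red blood cell markers had medians of 0.87 and -1.83, with all 7 members higher in batch 1 and all 7 lower in batch 2. Their summed level was 3077 and 2110 CPM in VEGF males 1 and 2, 566 and 653 CPM in VEGF males 5 and 6 and between 1199 and 2420 CPM in saline males. In bulk ganglia a change in the number of cells and in RNA per cell cannot be told apart, and the part of blood left in the tissue in these immune values was not tested. Interferon-stimulated genes lay higher in 22 of 25 over both batches (median 0.15), with medians of 0.23 in batch 1 and -0.06 in batch 2 and 8 members of the same sign in both, and Parp14 (0.40, SE 0.189) was the 1 member at an unadjusted p under 0.05. The cytokines Il6 and Tnf fell under the level tested, at 1.64 CPM or less in every male library.

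Of 37 cytokines, chemokines and their receptors, 19 were higher and 18 lower, with 2 at an unadjusted p under 0.05, both lower. Beside Il6ra, the neuronal chemokine Cx3cl1 (fractalkine) was at 43.6, 48.1, 32.6 and 23.2 CPM in saline and 16.1, 22.1, 13 and 15.5 CPM in VEGF males. Every VEGF male was below every saline male (log2 difference -1.09, SE 0.359), and saline male 8, which held the least spinal cord RNA of the saline males, was the lowest of them. The adjusted threshold was passed by no gene with or without the mean level of the spinal cord markers as a covariate. That count cannot show the part of spinal cord RNA in the difference of Cx3cl1, which was not tested.

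Circadian clock genes lay on 1 side of saline within batch 1, where 20 of 21 were lower in VEGF males (median -0.38), and 14 were higher in batch 2 (median 0.21). Clock proteins activate genes through the E-box, and their output factors Dbp, Tef and Hlf activate, and Nfil3 represses, genes through the D-box. Nfil3 alone did not overlap between the groups, at 16.9, 13.3, 10.7 and 11.1 CPM in saline and 7.30, 4.50, 7.23 and 7.72 CPM in VEGF males (log2 difference -0.91, SE 0.235, unadjusted p = 0.00116). Tef, its opponent on the same element, was at 97.4, 73.2, 109 and 103 CPM in saline and 49.8, 52.0, 123 and 122 CPM in VEGF males, thus below saline in batch 1 and above it in batch 2. Per2 was at 2.05 and 2.42 CPM in VEGF males 1 and 2, 17.7 and 17.2 CPM in VEGF males 5 and 6 and between 4.18 and 7.98 CPM in saline males. The hour of harvest is not given, so its part in these values was not tested.

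The promoters of Nfil3, of its opponent Tef and of the clock gene Per3 are shown because their genes hold 3 places in this circuit. They run from 250 bases before to 50 bases after the start of the gene, were taken from RefSeq (build GRCm38.p6) and are written 5′ to 3′ on the strand of the gene. Capitals mark the E-box CACGTG and the D-box TTATGTAA, searched on both strands. For Tef, with 2 annotated starts, the first is shown.
Nfil3 promoter (chr13:52980990-52981289, minus strand): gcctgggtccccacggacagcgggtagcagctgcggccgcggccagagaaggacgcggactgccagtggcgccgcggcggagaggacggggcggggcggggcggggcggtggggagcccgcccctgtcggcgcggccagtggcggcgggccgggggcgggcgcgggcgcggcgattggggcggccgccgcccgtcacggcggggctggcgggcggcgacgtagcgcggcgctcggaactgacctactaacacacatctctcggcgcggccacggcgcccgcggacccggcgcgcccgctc
Tef promoter (chr15:81802423-81802722, plus strand): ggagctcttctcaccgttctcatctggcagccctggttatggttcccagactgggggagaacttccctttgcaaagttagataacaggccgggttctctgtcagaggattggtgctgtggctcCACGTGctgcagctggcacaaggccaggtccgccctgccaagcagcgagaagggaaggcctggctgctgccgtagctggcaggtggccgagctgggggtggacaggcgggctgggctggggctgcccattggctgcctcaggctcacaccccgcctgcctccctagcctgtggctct
Per3 promoter (chr4:151044616-151044915, minus strand): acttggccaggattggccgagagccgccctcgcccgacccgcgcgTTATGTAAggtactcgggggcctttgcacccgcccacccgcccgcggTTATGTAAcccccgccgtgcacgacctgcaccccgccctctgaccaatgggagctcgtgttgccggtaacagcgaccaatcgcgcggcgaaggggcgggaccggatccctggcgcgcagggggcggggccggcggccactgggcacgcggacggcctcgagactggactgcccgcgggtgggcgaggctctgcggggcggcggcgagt
The Tef promoter held 1 E-box, from -127 to -122, and the Per3 promoter 2 D-boxes, from -205 to -198 and from -158 to -151, counted from the start of the gene. The 18 clock list genes with a RefSeq promoter had 24 promoters, and 5 of these genes held an E-box and 1, Per3, a D-box in any of them. Of all 32851 promoters of this length 7.15% held the E-box and 0.938% the D-box. The clock count is by gene and this share by promoter, so they are not like for like. A match describes the letters and no more, and Per3 itself differed by -0.37 in batch 1 and 0.75 in batch 2.

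Glucocorticoid-responsive genes resembled the clock genes, with 15 of 19 lower in batch 1 (median -0.57) and 11 higher in batch 2 (median 0.08). The receptor targets Klf9 (-0.90 and 0.74) and Tsc22d3 (-0.80 and 0.46) were called for the difference between batches, Klf9 not after the length and GC correction (adjusted p = 0.0524). Klf9 was at 37.9 and 32.9 CPM in VEGF males 1 and 2, 83.5 and 95.6 CPM in VEGF males 5 and 6 and between 50.8 and 70.4 CPM in saline males.

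Of 23 genes of PPAR signalling and fatty acid oxidation, 17 were lower (median -0.19, against -0.01 over all genes), and Angptl4, Pdk4 and Acot1 had an unadjusted p under 0.05. Pdk4, which shifts muscle and other cells from glucose to fat, was at 81.0, 21.1, 62.4 and 20.1 CPM in saline and 6.71, 11.2, 43.5 and 18.4 CPM in VEGF males. High values in saline males 3 and 7 set much of this difference (-1.26, SE 0.584). Those 2 libraries also held the most adipocyte RNA, with a summed level of adipocyte markers of 535 and 1037 CPM against 262 and 278 in saline males 4 and 8 and 123 to 459 CPM in VEGF males. All 14 adipocyte markers lay lower in VEGF males (median -0.80; batch 1 -0.05 with 6 higher, batch 2 -1.72 with 0 higher), among them Plin4 (-1.30, SE 0.449), and the part of fat around the ganglia in the lipid genes was not tested. Acot1, an acyl-CoA thioesterase, differed by -0.46 (SE 0.215).

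Mitochondrially encoded genes lay lower in VEGF males and higher in VEGF females, and so did skeletal muscle markers. All 13 lay lower in males (median -0.37; batch 1 -0.37, batch 2 -0.49), 6 of them at an unadjusted p under 0.05, and all 13 lay higher in females (median 0.31). Their summed level was 90340, 71022, 59719 and 45437 CPM in saline and 62428, 74955, 44189 and 39399 CPM in VEGF males, so that the groups overlapped. Of 16 skeletal muscle markers, 15 lay lower in males (median -0.35; batch 1 -0.66, batch 2 0.13) and all 16 higher in females (median 1.58). In batch 1 such opposite signs in the sexes cannot be told apart from the runs of library numbers described above. Saline male 3 was the highest and VEGF male 6 the lowest in the summed level of both lists, and the part of muscle RNA in the mitochondrial values was not tested. mt-Nd3, a subunit of complex I, was at 206, 260, 73.4 and 57.8 CPM in saline and 133, 125, 45.9 and 41.8 CPM in VEGF males, below saline within each batch (log2 difference -0.71, SE 0.218). mt-Atp6 differed by -0.45 (SE 0.155), mt-Co3 by -0.43 (SE 0.187) and mt-Co2 by -0.40 (SE 0.160). The nuclear complex subunits Ndufc1 (-0.40, SE 0.140) and Uqcrc1 (-0.28, SE 0.105) were the only 2 of 40 nuclear genes at an unadjusted p under 0.05.

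**Figure D4:**
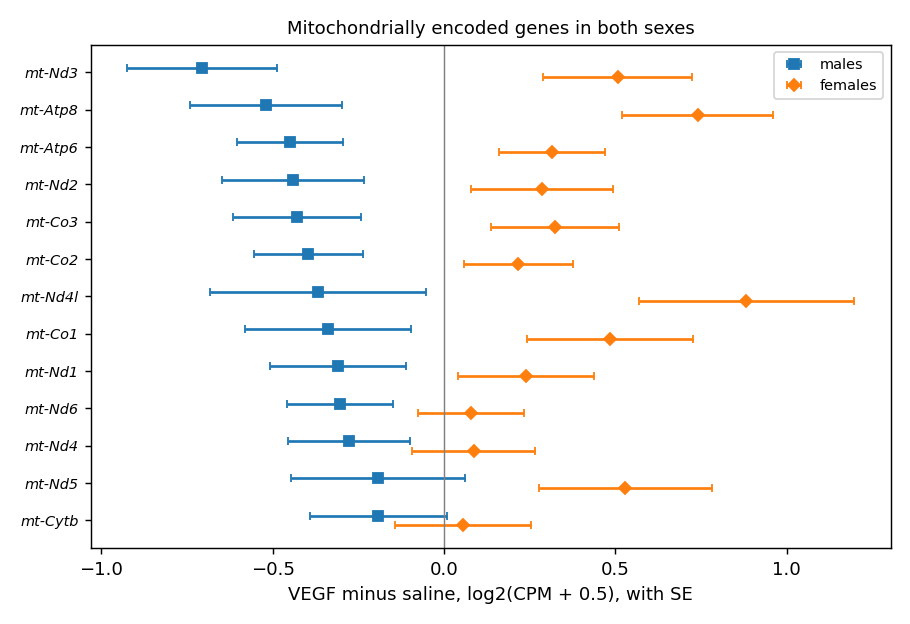
VEGF minus saline differences in log2(CPM + 0.5) with their SE (x axis) for the 13 mitochondrially encoded genes, in males (squares) and females (diamonds). All male values lie below 0 and all female values above 0, and mt-Nd3 is the lowest in males.

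The test of the female minus male difference called no gene (0 of 18283, 0.0% called, limma, smallest adjusted p 0.61), and 1497 genes (8.19% called) had an unadjusted p under 0.05. edgeR called 0 genes and DESeq2 1, Sox1. In batch 1 the difference between the sexes cannot be told apart from the runs of library numbers described above. With the smallest p, the female difference exceeded the male one in Tnnc1, Tnni1, Myrip, mt-Atp8, mt-Nd3 and Gprc5b, and lay below it in Snrnp48, Zfp873, Phlda1, Pyroxd2, Yes1 and Ccr10. Gprc5b, an orphan receptor, was at 168, 141, 154 and 160 CPM in saline males and 107, 110.7, 138 and 108 CPM in VEGF males, with no overlap, whereas the female means were 120.5 CPM with saline and 157 CPM with VEGF (difference between the sexes 0.81, SE 0.212, adjusted p = 0.61). Snrnp48, of the minor spliceosome, was at 15.6, 17.9, 14.1 and 13.2 CPM in saline males and at 26.9, 23.6, 23.2 and 22.9 CPM in VEGF males. It too did not overlap in males (0.66, SE 0.218), and its female difference was -0.60. Phlda1, an early response gene, was at 13.2 CPM in saline (SD 2.94, n = 4) and 21.8 CPM in VEGF males (SD 3.93, n = 4), against a female difference of -0.45. Of the 13 mitochondrially encoded genes 8, of 16 skeletal muscle markers 9 and of 25 interferon-stimulated genes 14 had an unadjusted p under 0.05 for the difference between the sexes, against the 8.19% of all genes. The median female minus male difference was 0.73 for the mitochondrial list, 2.07 for the muscle list and -0.74 for the interferon list. Tnnc1 and Tnni1 are slow muscle genes, and the part of muscle RNA in their difference between the sexes was not tested.

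RNA of neighbouring tissues differed between the libraries. All 15 markers of spinal cord glia and inhibitory neurons lay lower in VEGF males (median -1.42; batch 1 -1.39, batch 2 -1.45), 2 of them at an unadjusted p under 0.05. Their summed level was 1251, 715, 922 and 123 CPM in saline males and 500, 490, 104 and 147 CPM in VEGF males, so that saline male 8 lay among the VEGF males. Slc6a5, the glycine transporter of inhibitory neurons, was at 13.7, 8.86, 12.1 and 0.213 CPM in saline and 0.0373, 3.60, 0 and 0.113 CPM in VEGF males, and the oligodendrocyte gene Mog at 29.6, 16.1, 18.4 and 3.29 CPM against 8.16, 7.26, 0.922 and 2.38. Sox1, a transcription factor of the neural tube and the 1 gene that DESeq2 called (adjusted p = 0.0152), was at 1.33, 1.32, 2.24 and 0.365 CPM in saline and 0, 0, 0 and 0.0567 CPM in VEGF males. It was lower in saline male 8, which held the least spinal cord RNA of that group, than in the other 3 saline males, whose order it did not share, and the part of spinal cord RNA in its difference was not tested. Skeletal muscle markers summed to 28722 CPM in saline male 3 and to between 2712 and 13358 in the other 7 males.

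**Figure D5:**
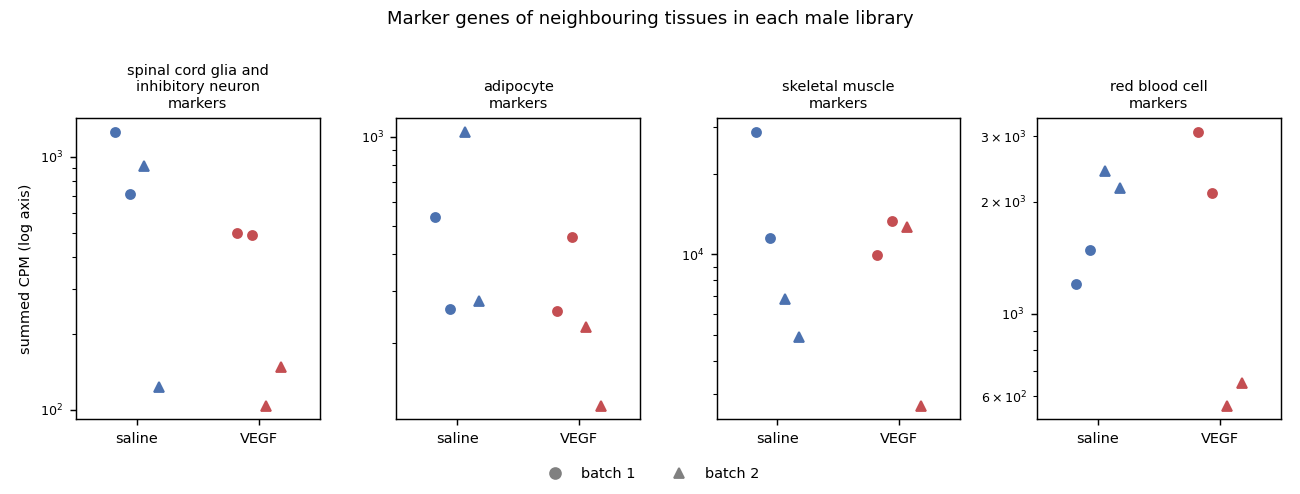
Summed CPM (log y axis) of marker genes of spinal cord, fat, skeletal muscle and red blood cells in each male library, with circles for batch 1 and triangles for batch 2. Spinal cord RNA is lowest in saline male 8 and VEGF males 5 and 6, and saline male 7 has the most adipocyte RNA.

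Glia and vessel genes showed small differences. Of 12 satellite glia markers 7 were lower, and Glul, the glutamine synthetase of these cells, was at 726, 673, 677 and 556 CPM in saline and 439, 463, 535 and 596 CPM in VEGF males, overlapping only through saline male 8 (log2 difference -0.38, SE 0.162). Cnp, a myelin enzyme, differed by -0.45 (SE 0.152). Of 18 endothelial markers 14 were lower (median -0.16), with Plvap (-0.40, SE 0.172), the diaphragm protein of fenestrated vessels, and Robo4 (-0.60, SE 0.263) at an unadjusted p under 0.05. The smooth muscle gene Cnn1 was at 6.62 CPM in saline (SD 2.34, n = 4) and 3.68 CPM in VEGF males (SD 1.08, n = 4), with no overlap. Sfrp4, a secreted inhibitor of Wnt signals made by fibroblasts, was at 52.1, 53.9, 84.0 and 65.7 CPM in saline and 39.7, 44.1, 31.1 and 48.7 CPM in VEGF males. It did not overlap (log2 difference -0.63, SE 0.180), and its female difference was -0.82.

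Chromatin and RNA processing genes lay higher in 26 of 30 (median 0.20), and in 29 of 30 in batch 2 (median 0.56) against 14 in batch 1 (median -0.04). Supt20, Ino80d, Ahctf1, Ythdc2 and the splicing kinase Clk1 (0.67, SE 0.241) were the 5 at an unadjusted p under 0.05 (2.47% of all genes). Of 20 immediate early genes 15 were lower, with Btg2 (-0.68, SE 0.273) and Klf4 (-0.50, SE 0.234) at an unadjusted p under 0.05. The heat shock genes Hspa1b (0.62, SE 0.268) and Hspe1 (0.41, SE 0.191) were higher, the first in batch 2 only (-0.14 and 1.39) and the second in batch 1 only (0.83 and -0.01). Of 11 nuclear-retained long RNAs, Snhg14 was higher (0.68, SE 0.259) and Kcnq1ot1 lower (-0.54, SE 0.214). Malat1 was at 137, 152, 1560.1 and 2021 CPM in saline and 169, 196, 399 and 333 CPM in VEGF males, so that its difference lay between the saline and VEGF males of batch 2.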

How the data were processed

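Poly(A) RNA of ganglia was sequenced from 16 animals, and the comparison used the 8 males. The deposited table holds CPM values made by the authors, each gene's reads scaled to a common library total, for 55357 genes in 16 libraries. The submitters' processing notes name Partek, Bowtie2, STAR, HTSeq and the build mm39, and give no roles or versions. Every column belonged to a sample (0 left over). Low CPM values gave whole reads in 100% of cases within 0.1 read, and these recovered reads were used for edgeR and DESeq2 as alternatives.

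Genes with a mean CPM of at least 0.5 over all 16 libraries were kept (18283 tested, 37074 left out). log2(CPM + 0.5) was fitted with limma 3.58.1 in R 4.3.3, with 4 group means, batch as a covariate and a trended prior, and p-values were adjusted by Benjamini-Hochberg over all genes tested. Fold changes on this scale understate those of low genes. edgeR 4.0.16 and DESeq2 1.42.0 were run on the recovered reads. The fit was tested on simulated data.

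Named genes were, at a mean of at least 1 CPM, the 15 with the smallest p in each direction and the same sign in both batches, the 6 in each direction for the difference between the sexes, and up to 4 of each of 49 gene lists. Others were chosen after their values were seen, and some genes that the rule names are not reported here. The lists and comparisons were chosen with earlier results of these data known. Of the genes tested, 42 have a symbol shared with another gene or no symbol. Alternatives were other pseudocounts, filters and scalings, no batch term, single batches, array weights, a replicate block and leaving out each library. A length and GC correction, a spinal cord covariate and the test between batches were added after seeing the data.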

Additional observations from a re-analysis of the deposited data

Results flagged for a closer look

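In 206 groups of 4 libraries examined, 7 had 1 library far from the others, where chance gives about 1 in 20. VEGF male 5 was the highest of its group for Gprc5b (138 CPM) and Plin4 (18.6 CPM). VEGF male 2 was the lowest for Nfil3 (4.5 CPM) and the highest for the spinal cord gene Slc6a5 (3.6 CPM). VEGF male 1 was the highest for Snrnp48 (26.9 CPM), VEGF male 6 for Sox1 (0.0567 CPM) and saline male 3 for Zfp873 (1.19 CPM).

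The VEGF minus saline difference of males was tested between the batches, and 898 genes were called by limma, a count that was 0 without any of 5 of the 8 libraries. The batch 2 minus batch 1 difference, on the log2 scale, was 4.57 for Sprr1a, 2.22 for Atf3 and 4.33 for Trpm8. It was 1.91 for Cacna2d1, 1.59 for Gfra1 and 1.22 for P2rx3. Hormone and clock genes had 1.64 (Klf9), 1.26 (Tsc22d3), 2.30 (Per2) and 1.44 (Nr1d2), and the heat shock gene Hspa1b 1.53. Lower in batch 2 were Malat1 (-2.62), Rplp1 (-1.32), Rpl23 (-1.21) and Vegfb (-0.76). After the length and GC correction Klf9, Nr1d2, Rplp1 and Vegfb were no longer called, and the cause was not tested.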

How the results depend on the processing

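The count of 0 genes called in males became 1 with no filter on low values (Bdkrb1, 0 CPM in all VEGF males and at most 0.396 CPM in saline males), 1 with DESeq2 (Sox1) and 14 with batch 2 alone, and stayed 0 without each library (0 to 0). The 1007 genes at an unadjusted p under 0.05 became 2027 with no filter, 558 with no batch covariate, 3262 with array weights, 2232 with batch 1 alone and 3832 with batch 2 alone, and ranged from 680 to 1334 without 1 library each. For the difference between the sexes DESeq2 called 1 gene, and leaving out 1 library gave 0 to 5. The 5 were called by limma without saline female 3 only. Among them were Tnnc1 (log2 difference 6.13) and Tnni1 (5.32), both at an adjusted p of 0.00339. Replicate numbers are shared only between males and females of a treatment, with correlations of deviations from -0.302 to 0.168, so they do not pair the samples, and the fit with a replicate block called 1 gene. The batch difference count of 898 became 178 after the length and GC correction and ranged from 0 to 2290 without 1 library each.

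For 94 named genes under 24 alternatives, 2207 of 2251 values kept their direction and side of the threshold, 42 changed sign and 2 passed the threshold (Malat1 with batch 2 alone, Sox1 with DESeq2). Sign changes were, with array weights, Vegfa 0.09, Flt1 -0.05, Kdr 0.05, Trpv1 0.13 and P2rx3 0.24. With batch 2 alone they were Vegfa 0.48, Pgf -0.28, Flt1 -0.07, Kdr 0.37, Grp 0.04, Gabra3 0.15, Hspe1 -0.01, Trpv1 0.37 and P2rx3 0.46. With batch 1 alone they were Vegfb 0.09, Flt4 0.04, Scn1a -0.03, Hspa1b -0.14, Malat1 0.34, Tac1 -0.23, Trpa1 -0.11 and Chrna7 -0.19. With the spinal cord covariate they were Vegfd -0.09, Pgf -0.04, Kdr 0.06, Calca -0.06 and Tac1 -0.06, and the batch difference of Vegfb became 0.06 after the length and GC correction. Without 1 library each, Vegfa ranged from -0.26 to 0.13, Vegfd from 0.0 to 0.25, Pgf from -0.02 to 0.25, Flt1 from -0.07 to 0.1, Kdr from -0.3 to 0.29, Flt4 from -0.3 to 0.06, Tac1 from -0.08 to 0.29, Trpv1 from -0.25 to 0.12 and P2rx3 from -0.32 to 0.1. The cause was not tested. With 4 animals a group and 2 in each batch, differences near the median SE of 0.239 were not detectable. Far larger ones were not called either: 219 genes differed by more than 2-fold, and none passed the adjusted threshold in the main fit.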
